A study of Mus musculus with 6 samples.

Results

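The members described here are 10 ligands of the TNF superfamily: Lta, Ltb, Tnf, Tnfsf14, Tnfsf11, Tnfsf8, Tnfsf4, Tnfsf10, Cd40lg and Fasl. They were chosen by gene name, as every non-control probe annotated with one of these symbols on 6 two-colour Agilent arrays. They are 10 of 28090 gene names on the array, with 12 probes of 41174, printed in 39 of 43379 spots per array, because the probes of Lta and Tnf and 1 probe of Fasl are each printed 10 times. All 12 probes were well above background in both channels on 6 of 6 arrays, none was saturated, and all 12 passed the filter on dim probes and were tested.

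Each array compared 1 pair of RNA samples from spleen CD4 T lymphocytes of the strain C57BL/6J. Both cell samples of a pair were activated with PMA and ionomycin, which stand in for T cell receptor signals, and 1 of them also received vasoactive intestinal peptide (VIP), a neuropeptide that signals in T cells mainly through receptors coupled to cyclic AMP. The controls therefore carry the activation too, without VIP. Every sample is described as a pool of the spleens of 5 to 10 mice, males and females of 6 to 32 weeks. The cells were purified with anti-CD4 beads. VIP RNA was in the red dye Cy5 in replicates 1, 3 and 5 and in the green dye Cy3 in replicates 2, 4 and 6. The dose of VIP and the duration of treatment were not given in the sources used here. All values are log2 ratios of VIP over untreated cells on 1 array, so that a negative value is a lower level with VIP.

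Most TNF superfamily ligands are made as membrane proteins that act as trimers on receptors of the TNF receptor superfamily, on neighbouring cells or, after cleavage, at a distance. Activated T cells are a main source of lymphotoxin: the alpha chain alone forms a secreted trimer that binds the TNF receptors, and together with the beta chain it forms a membrane complex that binds the lymphotoxin beta receptor. Tnfsf14 (LIGHT) binds that same receptor and HVEM. Lta, Tnf and Ltb lie side by side in the major histocompatibility region of mouse chromosome 17.

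The first 30 of the 60 bases of the probes of 4 ligands are shown because these oligonucleotides define what was measured: the 3 ligands that fell and Tnf, which lies between Lta and Ltb.
Lta: aggggaaaaatagaaagccgtcagatgaca
Ltb: atctgtattcattcctggaggatcgactga
Tnf: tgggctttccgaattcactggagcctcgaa
Tnfsf14: ttagaacagattgtgccaggcctgttggat
By the coordinates of the scanner files, in mouse build mm9, the probes lie at chr17:35340275-35340334 on the minus strand (Lta), chr17:35333097-35333156 on the plus strand (Ltb), chr17:35336795-35336854 on the minus strand (Tnf) and chr17:57329192-57329251 on the minus strand (Tnfsf14). The files assign each probe to a gene without an exon or UTR, and no annotation of that build was used here.

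The 250 bases before the start of the same 4 genes are shown to set the promoters of the ligands that fell beside that of Tnf. They come from RefSeq on build GRCm38.p6, and their coordinates belong to that build. Capitals mark every match, on either strand, to a loose NF-kB pattern of 3 G, any 5 bases and 2 C.
Lta (chr17:35205352-35205601, minus strand): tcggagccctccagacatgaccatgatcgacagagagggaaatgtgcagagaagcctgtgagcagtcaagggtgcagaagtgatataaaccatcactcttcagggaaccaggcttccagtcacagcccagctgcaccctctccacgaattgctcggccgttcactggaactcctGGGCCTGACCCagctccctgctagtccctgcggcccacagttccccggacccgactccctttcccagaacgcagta
Ltb (chr17:35194257-35194506, plus strand): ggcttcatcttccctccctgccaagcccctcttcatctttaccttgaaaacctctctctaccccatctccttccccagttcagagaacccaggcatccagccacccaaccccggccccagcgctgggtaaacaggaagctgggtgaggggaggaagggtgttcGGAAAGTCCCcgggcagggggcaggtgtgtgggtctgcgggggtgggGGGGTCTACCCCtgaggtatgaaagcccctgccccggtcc
Tnf (chr17:35202008-35202257, minus strand): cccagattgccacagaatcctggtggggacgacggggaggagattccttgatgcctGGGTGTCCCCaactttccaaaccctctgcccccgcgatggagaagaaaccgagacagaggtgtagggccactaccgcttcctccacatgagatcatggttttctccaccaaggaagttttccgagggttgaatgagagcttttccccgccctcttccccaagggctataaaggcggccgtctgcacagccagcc
Tnfsf14 (chr17:57194182-57194431, minus strand): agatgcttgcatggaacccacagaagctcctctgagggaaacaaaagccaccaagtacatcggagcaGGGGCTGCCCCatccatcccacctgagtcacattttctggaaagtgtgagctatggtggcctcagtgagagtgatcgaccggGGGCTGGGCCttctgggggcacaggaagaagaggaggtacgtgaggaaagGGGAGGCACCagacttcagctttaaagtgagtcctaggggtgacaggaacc
Matching by symbol found a promoter for 8 of the 10 ligands; those of Tnfsf4 and Cd40lg were not used here. The pattern marked in capitals occurred in 6 of the 8, those of Lta, Ltb, Tnf, Tnfsf14, Tnfsf11 and Fasl, and in 45.8% of all 32851 promoters of the same length. The shorter GGAAA, the core of NFAT and Ets sites, occurred in 8 of 8 and in 55.6% of all promoters, and in Ltb its single match overlaps a match of the pattern in capitals. The cyclic AMP response element TGACGTCA occurred in none of the 8 and in 1.5% of all promoters, and its core TGACG, which also lies within TGACGTCA, occurred in those of Tnfsf10 and Fasl and in 17.8% of all. The AP-1 pattern TGANTCA was present in the promoter of Tnfsf14 and in 6.7% of all promoters. Lta, Ltb and Tnf thus held the same 2 of the 5 patterns searched, and a match is a match of letters only.

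Replicate 5 stood apart from the other arrays. Its ratios of the Y-linked Ddx3y and Eif2s3y were 4.08 and 4.17 and that of Xist was -3.30, whereas the 5 sex-linked transcripts examined lay between -0.34 and 0.46 on the other 5 arrays. The 2 pools of replicate 5 thus differed in sex-linked RNA, although the samples are described as pools of males and females. On that array VIP cannot be told apart from whatever else differed between the pools. It had 13.45% of its spots flagged as outliers or uneven, against 0.57% to 4.44% elsewhere, and the residual SD over all probes was 0.156 against 0.100 to 0.115. The flagged spots of replicate 5 included 5 of 10 for Lta, 4 of 10 for Tnf, 4 of 10 for the brighter Fasl probe and the spot of Cd40lg. The fitted ratios of the ligands and of the other genes called, by the brightest probe of each, are therefore given with and without it where it has a value. For Ets1 and the further Cflar probes only the main fit is given. The 6 T cell markers examined, Cd3d, Cd3e, Cd3g, Cd4, Cd5 and Cd28, were well above background in both channels of every array. Their summed log2 level was 16.89 to 17.68 in the VIP channel and 16.83 to 17.69 in the untreated channel. That sum mainly reflects Cd5: mean log2 intensities ran from 7.80 for Cd3e and 8.06 for Cd4 to 16.78 for Cd5. Of the CD8 markers, Cd8b1 was at 12.27, above Cd4, and Cd8a at 6.78. What these levels of different probes mean for the purity of the cells was not tested. The array held 27 markers of B cells, monocytes, dendritic cells, natural killer cells, CD8 cells, granulocytes, platelets and red cells. Of these, 15 were well above background in both channels of every array. Among all 41174 probes, 21210 with values on 3 or more arrays met the same condition. None of the 27 was below background throughout. However, replicate 6 had 99.9% of red and 99% of green spots well above it, so almost no marker could have been.

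With VIP, 3 ligands fell and none rose. Lta, Ltb and Tnfsf14 passed an adjusted p of 0.05 in the fit across all probes, and the other 7 ligands did not; at an unadjusted limma p under 0.05, 4 lay lower (Fasl in addition) and 2 higher (Tnfsf11 and Tnfsf4), where 5.74% of all probes lay lower and 7.19% higher at that p. Across all 33233 probes tested, 0.542% were called lower and 1.61% higher. The fitted ratios of the 10 ligands, by the brighter probe of each, had a median of -0.08, with 6 below 0, against a median of 0.00 over all probes, of which 50.2% lay below 0. The balance between lower and higher calls over all probes moved with the processing: 74.8% of calls were higher here, 92.3% with no offset in the background correction, 95.1% with median centring in place of loess and 100% on the log ratios of the scanner software. Without replicate 5, the same 3 ligands were called lower and Tnfsf11 was called higher, where 1.05% of all probes were called lower and 2.53% higher. In RNA from a bulk population, fewer cells that express a gene and less RNA per cell cannot be told apart.

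**Figure D1:**
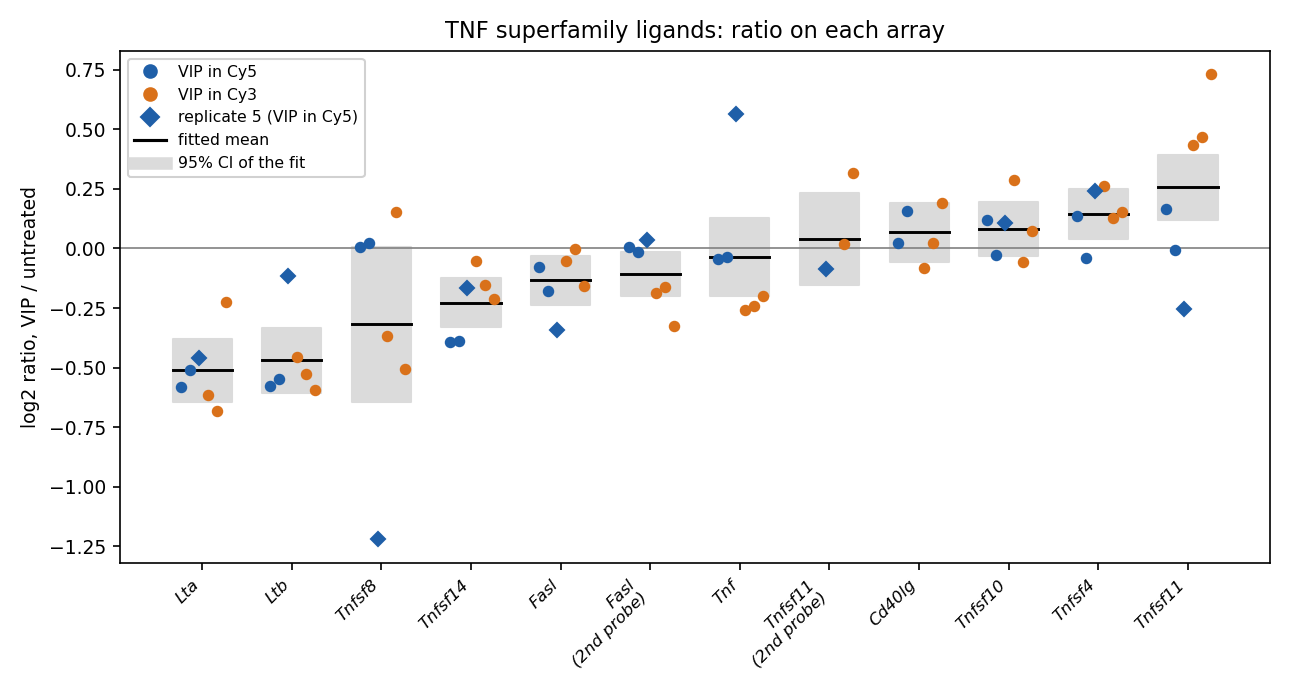
Log2 ratio of VIP over untreated cells on each array for the 12 probes of the 10 ligands, with the fitted mean (black line) and its 95% confidence interval (grey). All 6 points of Lta and of Ltb lie below 0, and replicate 5 (diamond) is the highest point for Tnf and the lowest for Tnfsf8 and Tnfsf11.

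Lta, the lymphotoxin alpha chain, gave log2 ratios of -0.58, -0.62, -0.51, -0.68, -0.46 and -0.23 in replicates 1 to 6. Every array lay below 0, and replicate 6 was the least reduced. The fitted ratio was -0.51 (SE 0.06, 95% CI -0.64 to -0.38, n = 6 arrays), a level that fell by 29.9% with VIP, with a limma adjusted p of 0.00151. By size this was rank 7 of the 180 probes called lower. The mean ratio within the 3 slides was -0.60, -0.60 and -0.34, and without replicate 5 the fitted ratio was -0.53 with a limma adjusted p of 0.000435.

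The 10 spots of the Lta probe show how well each array measured it. After flagged spots were left out, 54 spots remained over the 6 arrays, and 54 of 54 were below 0. Within an array the SD between spots was 0.04 to 0.06, against an SD of 0.16 between arrays. The gap between replicate 6, whose spots ran from -0.31 to -0.14, and replicate 4, whose spots ran from -0.79 to -0.64, was larger than the scatter between spots.

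Ltb, the lymphotoxin beta chain that anchors the complex in the membrane, gave -0.58, -0.46, -0.55, -0.53, -0.12 and -0.59. On 5 arrays the values ran from -0.59 to -0.46, and replicate 5 was above them all. The fitted ratio was -0.47 (SE 0.06, 95% CI -0.61 to -0.34, n = 6 arrays), a level that fell by 27.8%, with a limma adjusted p of 0.00282. Without replicate 5 it was -0.54 (SE 0.05), with a limma adjusted p of 3.21e-05 and an SD of 0.05 between the 5 arrays. The lymphotoxin probes ranked 8 (Lta) and 18 (Ltb) by p among the 180 probes called lower.

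Tnfsf14, the LIGHT ligand, gave -0.39, -0.05, -0.39, -0.16, -0.16 and -0.21. All 6 arrays were below 0, with the 2 lowest values in replicates 1 and 3. The fitted ratio was -0.23 (SE 0.05, 95% CI -0.33 to -0.12, n = 6 arrays), a level that fell by 14.6%, with a limma adjusted p of 0.0339. This call depended on single arrays: without replicate 1, 2, 3, 4 or 6 the limma adjusted p was 0.164, 0.0749, 0.139, 0.121 or 0.124, and without replicate 5 it was 0.00676 with a ratio of -0.27. Without a term for the dye the adjusted p was 0.131.

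Tnf, the archetype of the family, gave -0.05, -0.26, -0.04, -0.24, 0.56 and -0.20. On 5 arrays the values lay between -0.26 and -0.04, and replicate 5 alone was above 0. The arrays with VIP in Cy5 (-0.05, -0.04 and 0.56) lay above those with VIP in Cy3 (-0.26, -0.24 and -0.20) without overlap. The fitted dye effect was 0.20. With that effect taken out, replicates 1 to 6 were at -0.24, -0.06, -0.23, -0.04, 0.37 and -0.001. The fitted ratio was -0.04 (SE 0.07, 95% CI -0.20 to 0.13, n = 6 arrays), with a limma adjusted p of 0.911. Without replicate 5 it was -0.14 (95% CI -0.23 to -0.04), with an unadjusted limma p of 0.00976 and an adjusted p of 0.139, so that the direction of the 5 arrays was shared but did not pass the threshold. With median centring the ratio was 0.11, and without replicate 1 or replicate 3 it was 0.02 or 0.01.

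The 10 spots of Tnf gave the same picture of replicate 5. Its 6 spots in use ran from 0.47 to 0.63, with an SD of 0.06, and none overlapped the spots of any other array. Of the 52 spots in use over 6 arrays, 42 were below 0.

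**Figure D2:**
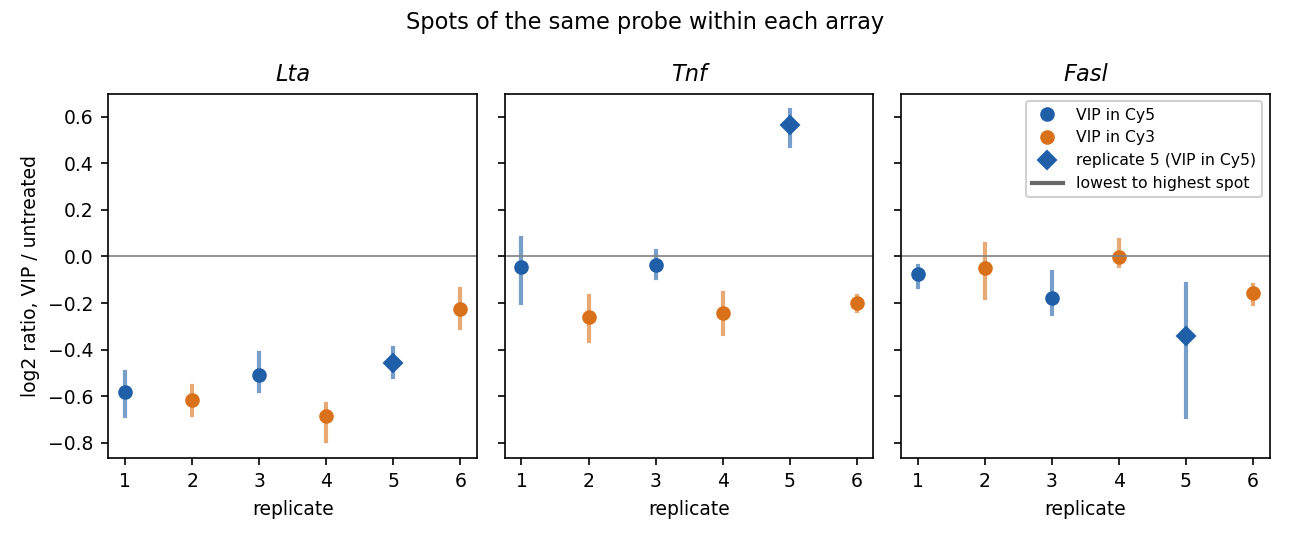
Mean log2 ratio (symbol) and the range from the lowest to the highest spot (bar) of 1 probe each of Lta, Tnf and Fasl on each of the 6 arrays. Spots of Lta lie below 0 on every array, and those of Tnf in replicate 5 run from 0.47 to 0.63, above all other arrays.

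The 3 neighbours on chromosome 17 were compared within arrays. Lta was below Tnf by a mean of 0.48 on the log2 scale (SD 0.32, n = 6 arrays, range of the difference -1.02 to -0.03), with Lta lower on 6 of 6 arrays. Ltb was below Tnf on 6 of 6 arrays, with a mean difference of -0.43 (SD 0.18, range -0.68 to -0.20). Each gave p = 0.03125 in the exact two-sided sign-flip permutation test, the smallest that 6 arrays allow, and 0.046875 after Benjamini-Hochberg adjustment over the 3 pairs. The pairs were chosen with earlier results of these data known, so these p-values are not independent support for a difference. Lta and Ltb differed by -0.04 (SD 0.24, range -0.34 to 0.36, exact permutation p = 0.71875), so a difference between them was not resolved. Without replicate 5 the differences were -0.37 for Lta and -0.39 for Ltb, on 5 of 5 arrays each, and the exact permutation p of 0.0625 was the smallest 5 arrays allow. With median centring the exact permutation test gave adjusted p values of 0.28125 for Lta and 0.09375 for Ltb.

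Within 150 kb on either side of the Lta probe, 39 probes of 29 genes were tested. On the axis of the chromosome, the probe of Ltb began at -7.18 kb and that of Tnf at -3.48 kb from the Lta probe, and the nearest tested neighbours beyond them, Lst1 and Nfkbil1, were not called, with Nfkbil1 at -0.07 (limma adjusted p 0.594). Of the 26 tested genes other than these ligands, 1 was called, where 0.542% of all probes were called lower and 1.61% higher. It was Ddah2, at -0.28 (SE 0.04) with a limma adjusted p of 0.00441, at -141.4 kb from Lta. Without replicate 5, Ddah2 was at -0.29 (limma adjusted p 0.00341). The 36 probes of these genes spanned -0.28 to 0.13, so that the ratios of Lta and Ltb lay below all of them.

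**Figure D3:**
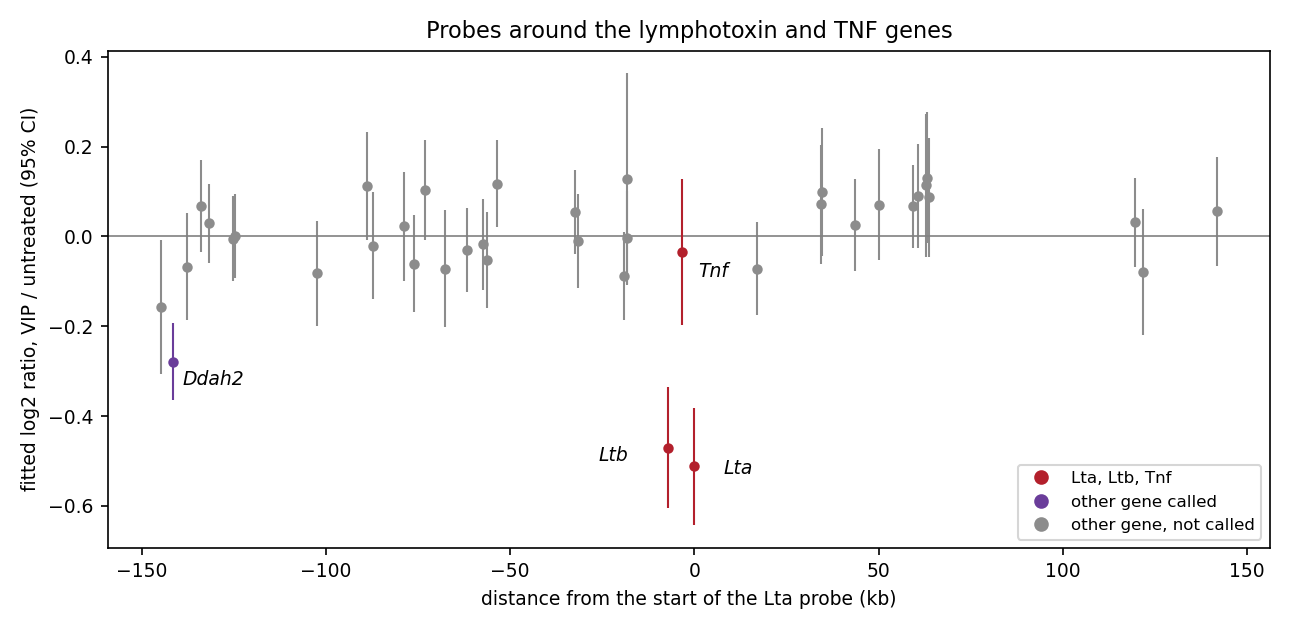
Fitted log2 ratio with its 95% confidence interval for each tested probe within 150 kb of the Lta probe, against distance in kb. Lta and Ltb lie at -0.51 and -0.47, below the other probes of the region, and Tnf between them in position lies at -0.04.

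Tnfsf11 (RANKL), the ligand that drives osteoclast formation and supports dendritic cells, had the highest ratio of the 10 ligands. Its brighter probe, at chr14:78677959-78678018 in mm9, gave 0.17, 0.43, -0.01, 0.47, -0.26 and 0.73. The arrays with VIP in Cy3 (0.43, 0.47 and 0.73) lay above those with VIP in Cy5 (0.17, -0.01 and -0.26) without overlap, and the fitted dye effect was -0.29. The fitted ratio was 0.26 (SE 0.06, 95% CI 0.12 to 0.39, n = 6 arrays), with a limma adjusted p of 0.0662. It passed the threshold without replicate 5 (0.31, limma adjusted p 0.00734), with the slide as a block (0.0227) and with weights for array quality (0.0186). A second probe kept values on 3 arrays, 0.02, -0.09 and 0.32 in replicates 4 to 6, with a fitted ratio of 0.04 (limma adjusted p 0.911); with flagged spots kept, it had 6 arrays and 0.20 (limma adjusted p 0.418).

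Tnfsf8 (CD30 ligand), which engages CD30 on activated lymphocytes, had the widest spread. Its ratios were 0.01, -0.37, 0.02, 0.15, -1.22 and -0.51, with 3 arrays above 0 and 3 below. The fitted ratio of -0.32 (SE 0.15, 95% CI -0.64 to 0.01) had a limma adjusted p of 0.401, and without replicate 5 it was -0.11 (limma adjusted p 0.547). A change was thus not resolved, and the size of the ratio rested largely on replicate 5.

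Fasl, the ligand through which T cells kill Fas-bearing cells, was below 0 on 6 of 6 arrays by its brighter probe, at -0.08, -0.05, -0.18, -0.003, -0.34 and -0.16. The fitted ratio was -0.13 (SE 0.05, 95% CI -0.24 to -0.03, n = 6 arrays), with a limma adjusted p of 0.233. The second probe gave -0.11 (limma adjusted p 0.286), also not called. Without replicate 5 the ratios were -0.10 (limma adjusted p 0.352) and -0.11 (limma adjusted p 0.26). Of the 55 spots of the brighter probe in use, 49 were below 0, and the SD between spots reached 0.21 in replicate 5 against 0.03 to 0.07 elsewhere.

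A further 3 ligands lay slightly above 0 and did not pass the test. Tnfsf4 (OX40 ligand), which costimulates T cells, gave 0.13, 0.26, -0.04, 0.13, 0.24 and 0.15, with a fitted ratio of 0.15 (SE 0.05, limma adjusted p 0.192, n = 6 arrays). Tnfsf10 (TRAIL), an inducer of apoptosis, gave -0.06 to 0.29, with a fitted ratio of 0.08 (SE 0.05, limma adjusted p 0.564). Cd40lg, the helper signal to B cells, gave -0.08 to 0.19 on 5 arrays, because its spot was flagged in replicate 5, with a fitted ratio of 0.07 (SE 0.05, limma adjusted p 0.689). The 95% confidence intervals reached 0.25 for Tnfsf4, 0.20 for Tnfsf10 and 0.19 for Cd40lg, so larger rises than these lie outside the intervals. Without replicate 5, Tnfsf4 was at 0.11 (limma adjusted p 0.284) and Tnfsf10 at 0.07 (limma adjusted p 0.605), and Cd40lg has no value there to leave out.

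The receptors of these ligands were examined from a list of 14, of which 13 were tested. Both TNF receptors rose, where 1.61% of all probes were called higher, and the other 11 did not pass. At an unadjusted limma p under 0.05, 4 were higher and 0 lower, against 7.19% and 5.74% of all probes. The median ratio of the 13 was 0.02. Tnfrsf1b (TNFR2), abundant on T cells, gave 0.20, 0.47, 0.29, 0.50, 0.11 and 0.46. It was above 0 on every array, with a fitted ratio of 0.34 (SE 0.04, n = 6 arrays) and a limma adjusted p of 0.00205, and its second probe, at 0.20, was not called. Tnfrsf1a (TNFR1), which carries a death domain, gave 0.32, 0.27, 0.37, 0.30, 0.19 and 0.65. Its fitted ratio was 0.35 (SE 0.06, n = 6 arrays) with a limma adjusted p of 0.00948. Next by p came the decoy receptor Tnfrsf23 at 0.16 and Btla, a partner of HVEM, at 0.10, neither called. The 2 TNF receptors that rose are also those of the alpha chain trimer of Lta, which fell. Ltbr and Tnfrsf14 (HVEM), named as receptors of the membrane lymphotoxin complex or Tnfsf14 and not by their p, were not called. They were at -0.06 and -0.02, with limma adjusted p values of 0.851 and 0.943. Without replicate 5, Tnfrsf1b was at 0.36 (limma adjusted p 0.00061) and Tnfrsf1a at 0.37 (limma adjusted p 0.00326).

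Of 8 further ligands of the family, 5 were tested and none was called by limma, with a median of -0.03 and 1 gene lower at an unadjusted p under 0.05, where 5.74% of all probes were lower. The smallest adjusted p was that of Tnfsf9 (4-1BB ligand), at -0.16 (SE 0.04, limma adjusted p 0.116). Of the 14 signalling genes, which had a median of 0.00, 1 fell, where 0.542% of all probes were called lower. By unadjusted limma p under 0.05, 2 were higher and 3 lower, against 7.19% and 5.74% of all probes. Cflar (c-FLIP), which restrains caspase 8 at death receptors, gave -0.68, -0.10, -0.54, -0.25, -0.68 and -0.46, with a fitted ratio of -0.45 (SE 0.05, limma adjusted p 0.00147). Of the 6 Cflar probes, 3 were called, and the probes ran from -0.47 to -0.06. Map3k14 (NIK), the kinase of the noncanonical NF-kB pathway downstream of the lymphotoxin beta receptor, was at 0.24 (limma adjusted p 0.054), and Birc3 was at 0.21 (limma adjusted p 0.061). Without replicate 5 Cflar was at -0.44 (limma adjusted p 0.000736). Map3k14 had no value in replicate 5, and its ratio was 0.24 in the fit without that array too, although its limma adjusted p was then 0.0196.

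None of the 6 genes of ligand shedding and processing was called by limma (median -0.03). At an unadjusted limma p under 0.05, 2 were lower, against 5.74% of all probes. Furin was at -0.25 (limma adjusted p 0.191) and Rhbdf2 at -0.14, by the brighter probe of each. The second Furin probe was at 0.03. Without replicate 5 the brighter Furin probe was called lower, at -0.34 (limma adjusted p 0.0099). None of the 10 genes of mRNA decay was called by limma (median 0.02, 2 higher at an unadjusted p under 0.05, against 7.19% of all probes), with Zfp36 (tristetraprolin), which promotes decay of Tnf mRNA, at 0.16 (limma adjusted p 0.145). Of 16 transcription factors and regulators, by the brightest probe of each, 2 rose, where 1.61% of all probes were called higher. The median was -0.02. With an unadjusted limma p under 0.05, 3 were higher and 1 lower, against 7.19% and 5.74% of all probes. Fos was at 0.71 (SE 0.06, limma adjusted p 0.000204) and Rel, the c-Rel subunit of NF-kB, at 0.26 (SE 0.05, limma adjusted p 0.0275). Without replicate 5 they were at 0.68 (limma adjusted p 3.24e-05) and 0.21 (limma adjusted p 0.03). For Ets1, 3 of 4 probes were called and ran between 0.18 and 0.35 with the uncalled one, although its brightest probe, at 0.18 on 3 arrays, was not. Egr1 was at -0.14 and Nfkbia at 0.12, neither called.

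**Figure D4:**
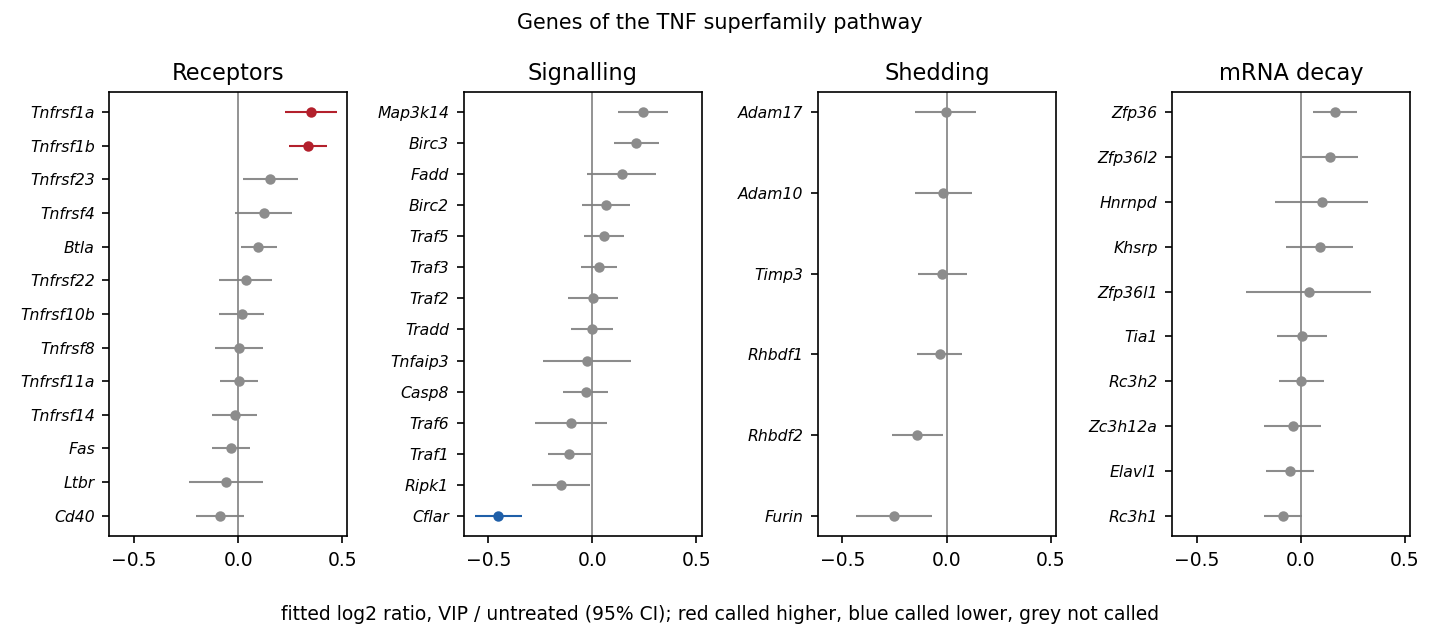
Fitted log2 ratio with its 95% confidence interval for the tested genes of 4 lists, by the brightest probe of each gene. Tnfrsf1a and Tnfrsf1b are called higher and Cflar lower, and no gene of shedding or mRNA decay is called.

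Cd28, a T cell costimulatory receptor, rose by 0.28 on the log2 scale by its brighter probe (limma adjusted p 0.0122). Its second probe, at 0.16, was not called, and neither were the other 5 T cell markers. Of the 6 monocyte and macrophage markers, Cd14 rose by 0.57 (limma adjusted p 0.00288) on 5 arrays and the other 5 were not called; the summed log2 level of the list was 13.13 to 15.04 with VIP and 12.85 to 15.02 without. Cd14 was among 26 tested markers of cells other than CD4 T cells, of which 1 was called higher and 0 lower by limma. Over all probes, 1.61% were called higher and 0.542% lower. At an unadjusted limma p under 0.05 the counts of these markers were 2 and 0, against 7.19% and 5.74% of all probes. Without replicate 5, where Cd14 has no value, Cd28 was at 0.28 (limma adjusted p 0.00979). None of the 7 B cell markers was called, and their summed level was 11.29 to 12.17 with VIP and 11.01 to 12.36 without. The part of these levels in the ratios of the ligands was not tested.

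Across the settings tried, the ratios of Lta and Ltb stayed below 0, from -0.58 to -0.47 for Lta and from -0.54 to -0.35 for Ltb, over 20 alternatives each. Lta passed the threshold in 17 of the 20 and Ltb in 16, Tnfsf14 in 9 and Tnfsf11 in 3, whereas Tnf, Tnfsf8, Tnfsf4, Tnfsf10, Cd40lg and Fasl passed in none. The alternative that scaled between arrays left every ratio and p as in the main fit, so its passes only repeat those of the main fit. On the log ratios of the scanner software, the limma adjusted p was 0.0959 for Lta and 0.0827 for Ltb, at ratios of -0.52 and -0.49; with median centring it was 0.0545 and 0.325. With no offset in the background correction, Lta passed and the adjusted p of Ltb was 0.0537.

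**Figure D5:**
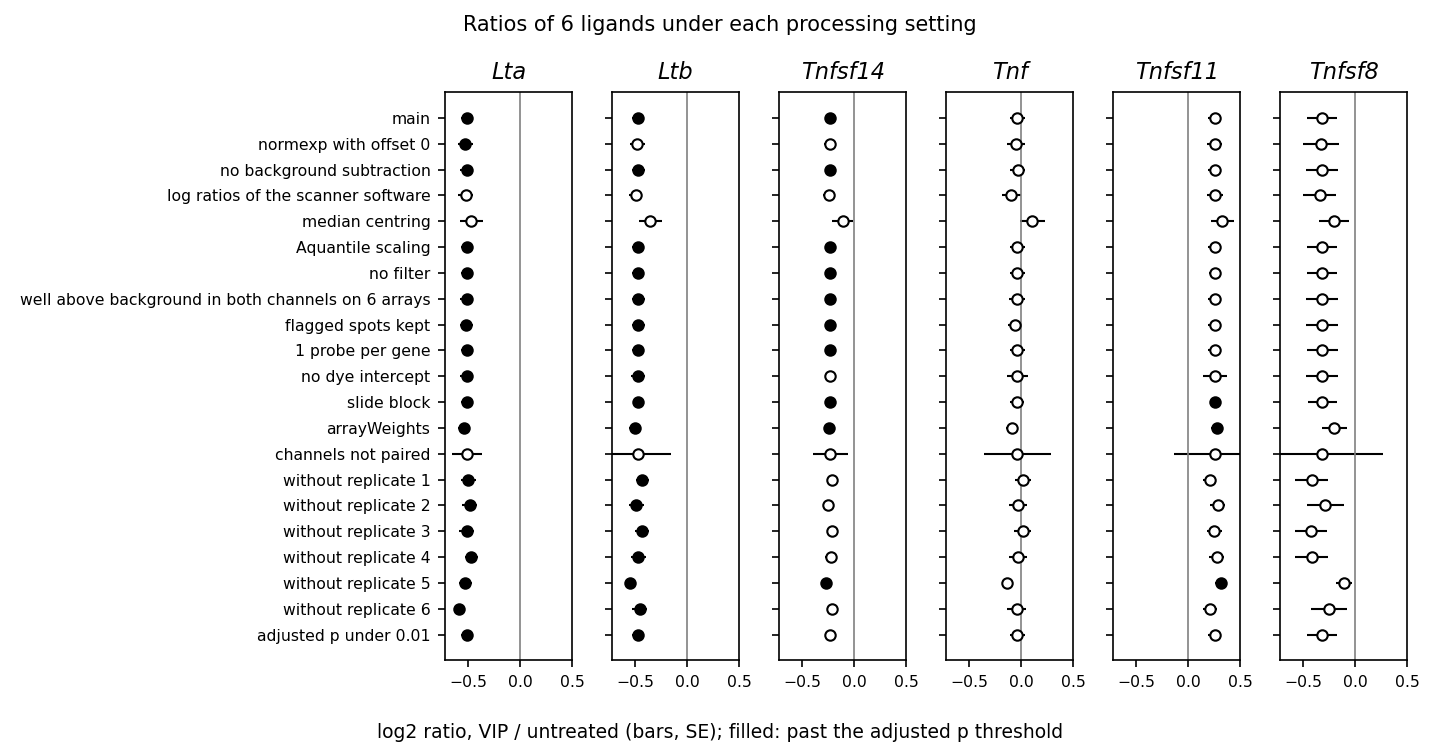
Log2 ratio with its SE for 6 ligands under the main processing (top) and 20 alternatives, with filled symbols past the adjusted p threshold. Lta and Ltb stay below 0 in every setting, and Tnfsf11 is filled with the slide block, with array weights and without replicate 5.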

How the data were processed

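Red and green intensity values were deposited by the authors as scanner output of Agilent Feature Extraction 9.5.1.1, per the file headers, with log10 ratios of the scanner software and spot flags (other values: 0 or 1) that the deposited files also hold. The deposited table of processed log10 ratios matched the scanner's, with VIP over untreated and array medians from -0.00198 to 0. It served for the alternative on the log ratios of the scanner software and not for the main fit. From the intensities, limma 3.58.1 in R 4.3.3 computed normexp background correction (offset 50) and loess within arrays, with 1639 control spots at weight 0. Flagged spots were left out and spots of a probe averaged. Tested probes were well above background on 3 or more arrays, in the VIP or the untreated channel, and had values on 3 or more. The fit had a VIP effect and a dye term, and p-values were adjusted by Benjamini-Hochberg over 33233 probes. The slide position coincides with the dye orientation, so they cannot be told apart. The labels call the 6 arrays biological replicates, and p-values measure the spread between them. Members, lists and tests were chosen with earlier results of these data known. Named genes were the 10 members, genes within 150 kb of Lta and at most 4 genes with the smallest p per list; Ltbr, Tnfrsf14, Ets1 and the markers were named with their values known. The fit was tested on simulated data. Alternatives changed the background, normalization, filter, probe choice, design and replicates, and those without replicate 5 for lists and locus differences were added after seeing the data. Array number limits the precision.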

Additional observations from a re-analysis of the deposited data

Results flagged for a closer look

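A sample far from the others was found for 2 of the 11 probes with values on at least 4 arrays. The ratio of Tnf in replicate 5 was 0.565, and its gap to the next array was 0.731 of the range of the 6 arrays, above the critical value of 0.625. The ratio of Ltb in replicate 5 was -0.117, with a gap of 0.714. After the dye effect was taken out, the gaps were 0.605 for Tnf and 0.497 for Ltb, below that value. Chance alone flags about 1 in 20 such groups. Replicate 5 is also the array that stands apart in its sex-linked transcripts and its flagged spots, and the part of these in the 2 ratios was not tested.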

How the results depend on the processing

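The ratios of Lta, Ltb, Tnfsf14, Tnfsf11, Tnfsf8, Tnfsf4, Tnfsf10, Cd40lg and Fasl kept their sign in 20 of 20 alternatives, and Tnf in 17. Of these alternatives, 6 left the ratios of all 10 ligands within 0.0005. They change the test, the filter, the probe choice, the threshold or the scaling between arrays. That scaling left the log ratios untouched and repeated the main fit in full. Without a dye term or with the slide block, only the ratio of Cd40lg moved. At most 14 alternatives could therefore show a change of sign, and fewer for most single ligands. Probes called higher and lower, 535 and 180 here, numbered 108 and 9 with normexp at offset 0, 38 and 0 on the scanner's log ratios, where 3286 probes had an unadjusted limma p under 0.05, 174 and 9 with median centring, 247 and 53 without a dye term, 3 and 0 with the channels not paired, where 185 had an unadjusted limma p under 0.05, and 245 and 44 at a threshold of 0.01. Lower calls were 119 with 1 probe per gene, where fewer probes were tested, and 343 with array weights. Leaving out 1 replicate gave 245 to 837 higher and 47 to 347 lower calls, the highest of each without replicate 5. Of the ligands, 3 lower here, 1 was called lower with offset 0 and 0 on the scanner's log ratios, with median centring or with the channels not paired. The count of ligands called higher, 0 here by limma, was 1 (Tnfsf11) with the slide block, with array weights and without replicate 5, so that leaving out 1 replicate gave 0 to 1. The differences from Tnf were -0.57 for Lta and -0.46 for Ltb with median centring, and -0.37 and -0.39 without replicate 5. The causes were not tested. The main fit pairs the 2 channels of each array; with the slide as a replicate block, the limma adjusted p of Tnfsf11 was 0.0227 in place of 0.0662, and no other ligand changed its call. The array number and the dim signal of Tnfsf10 limit the precision.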
